A study of Arabidopsis thaliana with 8 samples.

Results

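The pat1-1path1-4path2-1summ2-8 triple mutant of Arabidopsis thaliana was set against the sum of the effects of its 3 single mutations. On the log2 scale, the departure of a gene is its fold change in the triple mutant minus the summed fold changes in pat1-1summ2-8, path1-4summ2-8 and path2-1summ2-8, each taken against summ2-8. A positive departure means that the triple mutant lay above the level that the single effects add up to, and a negative one that it lay below it. The contrast used 5 of the 8 genotypes of the series and 15 of its 24 libraries. A departure could be tested for 20346 of the 37336 genes listed.

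The study measured RNA by sequencing in plants lacking members of the PAT1 family in every single, double and triple combination, and asked which genes act in the developmental programmes that these proteins control. The genotypes used here are the triple mutant pat1-1path1-4path2-1summ2-8, the single mutants pat1-1summ2-8, path1-4summ2-8 and path2-1summ2-8, and the control summ2-8, with 3 libraries each. Every genotype carries summ2-8, a mutation of the immune receptor gene SUMM2, so no group here is a wild type. All plants were 6 weeks old, were kept at 21 °C under 8 h of light and 16 h of darkness in pots of either of 2 sizes, and gave their above-ground tissue. The labels do not say which genotype had which pot, whether plants were pooled, or what lesion each allele carries. The double mutants pat1-1path1-4summ2-8, pat1-1path2-1summ2-8 and path1-4path2-1summ2-8 entered the fit for its estimate of spread and are given beside some genes as a description.

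PAT1 proteins bind the LSM1-7 ring on the shortened tails of messenger RNAs and help to bring in the decapping enzyme, after which the body of the message is degraded from its 5′ end. Arabidopsis has a small family of them, PAT1, PATH1 and PATH2. SUMM2 guards a kinase cascade that ends in MPK4, of which PAT1 is a substrate, and loss of SUMM2 removes the autoimmunity that disturbing this cascade sets off.

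The libraries of the contrast held 14187145 to 31327656 counts, and replicate libraries of a genotype correlated at 0.981 to 0.994 over log2-scaled counts in all 24 libraries. On the first principal component of these 15 libraries, which held 45.7% of the variance, the triple mutant libraries lay at 59.9 to 66.1, pat1-1summ2-8 at 20.2 to 25.8 and the other 9 libraries at -40.7 to -14.8. The mutated genes kept their messages, so the counts check the labels only in part. PAT1 (AT1G79090) was at 37.1, 38.8 and 35.5 CPM (counts scaled to 1000000 per library) in the triple mutant and 36.6, 36.0 and 35.4 CPM in pat1-1summ2-8, against 50.1, 46.7 and 46.6 CPM in summ2-8 (edgeR adjusted p = 0.00446 and 0.00538). PATH1 (AT3G22270) fell by 0.36 on the log2 scale in path1-4summ2-8 (edgeR adjusted p = 0.025), while PATH2 (AT4G14990) was at 82.2, 91.2 and 97.6 CPM in path2-1summ2-8, against 90.2, 87.4 and 80.5 CPM in summ2-8, which does not check that label. None of PAT1, PATH1, PATH2 and SUMM2 departed from the sum: their departures were -0.02, 0.19, 0.33 and -0.19, with standard errors (SE) of 0.19, 0.13, 0.19 and 0.35.

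A total of 1344 genes departed from the sum of the single effects at a Benjamini-Hochberg adjusted p below 0.05 in the edgeR quasi-likelihood test, which is 6.61% of the genes tested. Of these, 633 (3.11%) were higher in the triple mutant than the sum and 711 (3.49%) were lower. The departure was more than 2-fold for 339 of the higher and 324 of the lower genes, and its median was 1.07 among the higher and -0.95 among the lower ones. At an unadjusted p below 0.05 there were 4624 genes. When the sum was taken over CPM instead of log2 values, 803 genes were called higher and 502 lower. Of the 1344 genes, 1023 were called on both scales, and 1 gene of the 1344, the laccase gene LAC2, changed sign. In the same fit, 9230 genes (45.4%) differed between the triple mutant and summ2-8, 4653 (22.9%) between pat1-1summ2-8 and summ2-8, 36 (0.177%) between path1-4summ2-8 and summ2-8, and 4 (0.0197%) between path2-1summ2-8 and summ2-8. These 4 comparisons share the control libraries with each other and with the departure. The contrast draws on all 5 genotypes, and the median SE of a departure, 0.25, was larger than that of a fold change against the control, which was 0.12 for the triple mutant and 0.12 to 0.13 for the single mutants.

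**Figure D1:**
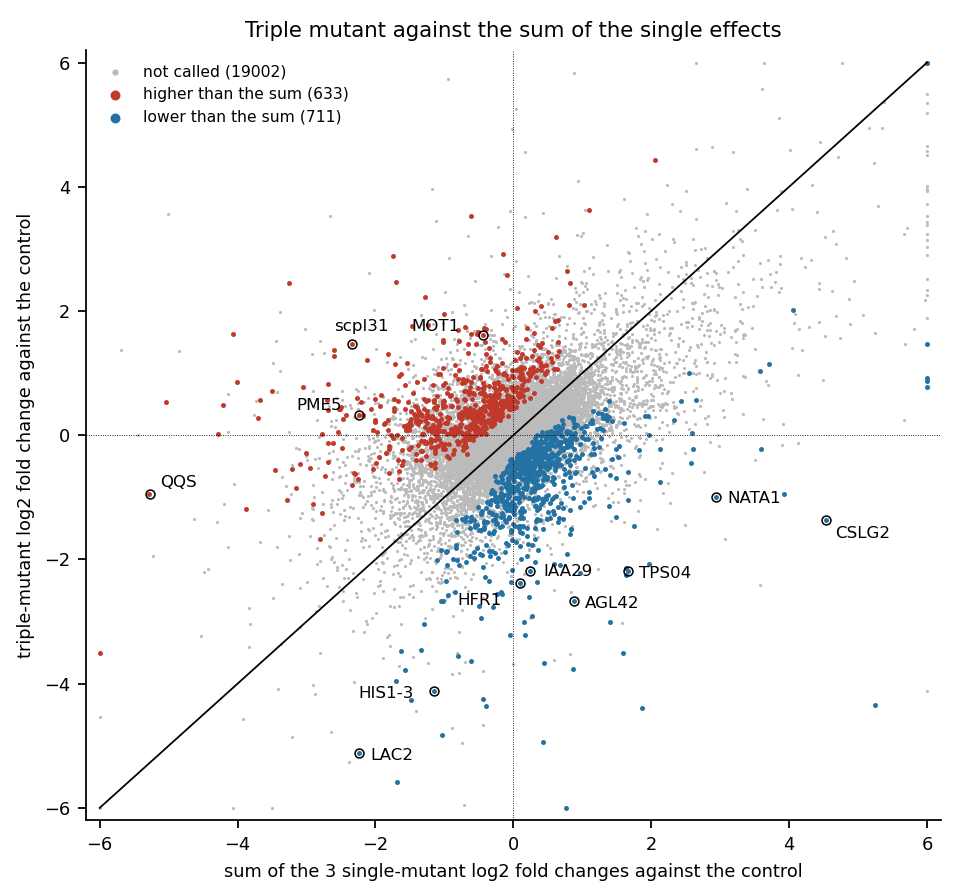
Each point is a gene, placed by the sum of its 3 single-mutant log2 fold changes against summ2-8 (horizontal axis) and its triple-mutant log2 fold change against summ2-8 (vertical axis); values beyond 6 are drawn at 6. The line marks equality: the 633 genes called higher lie above it, the 711 called lower lie below it, and most called genes sit in the 2 quadrants where the fold change and the sum have opposite signs.

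In most departing genes, the fitted triple fold change and the sum lay on opposite sides of the control. Their signs differed in 907 of the 1344 genes, which is 67.5%, against 31.1% of all genes tested, and in 632 of the 907 the triple mutant itself differed from summ2-8 in the edgeR test. The triple mutant went beyond a sum of the same sign in 271 genes (88 higher and 183 lower) and fell short of it in 166 (94 higher and 72 lower). These classes follow from the values that make up the contrast and are a description. The median log2 fold changes of the 711 lower genes were -0.62 in the triple mutant, -0.02 in pat1-1summ2-8, 0.16 in path1-4summ2-8 and 0.18 in path2-1summ2-8. For the 633 higher genes they were 0.43 in the triple mutant, -0.13 in pat1-1summ2-8, -0.25 in path1-4summ2-8 and -0.23 in path2-1summ2-8.

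**Figure D2:**
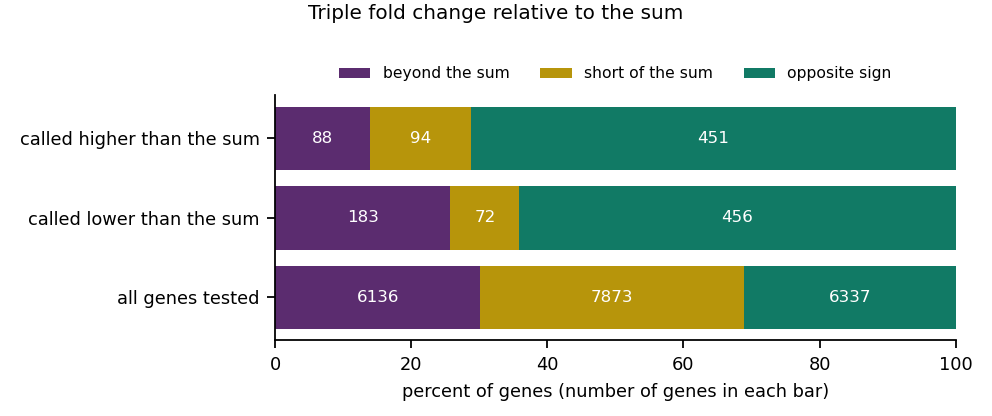
Horizontal bars give the percent of genes, among those called higher, those called lower and all genes tested, whose triple-mutant fold change went beyond the sum, fell short of it or had the opposite sign, with the number of genes in each bar. Opposite signs make up 451 of 633 higher and 456 of 711 lower genes, against 6337 of 20346 genes tested.

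The position of the triple mutant among the libraries is likewise part of what the contrast measures and is given as a description. All 3 of its libraries lay above the other 12 libraries of the contrast in 379 of the 633 higher genes and below them in 541 of the 711 lower genes, against 22.6% of all genes tested that lay on either side. With the 9 double-mutant libraries added to the comparison, the triple mutant still lay outside all 21 other libraries in 302 higher and 424 lower genes (12.5% of all genes tested). A smaller set turned on the control: in 36 called genes, all 3 summ2-8 libraries lay above or below the other 12, as they did in 1.17% of all genes tested. In 51.1% of the called genes the 3 single mutants all lay on the opposite side of the control from the departure, against 36.9% of all genes tested. The control enters each of the 3 single fold changes, so an error in its level moves all 3 the same way.

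The number of departing genes depended on single control libraries. Without summ2-8 replicate 2, 546 genes were called (264 higher and 282 lower), of which 517 were among the 1344 with the same sign. Without summ2-8 replicate 3, 696 were called (344 higher and 352 lower), and without pat1-1summ2-8 replicate 3 the lower genes numbered 471. Summ2-8 replicate 2 was the lowest library on the second principal component, at -33.6 against -13.5 and 5.16 for the other summ2-8 libraries. A set of 373 genes (1.83% of those tested), 170 higher and 203 lower, was called in the fit of all libraries and in each of the 15 fits that left out 1 library. Such genes are said here to hold without any library.

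**Figure D3:**
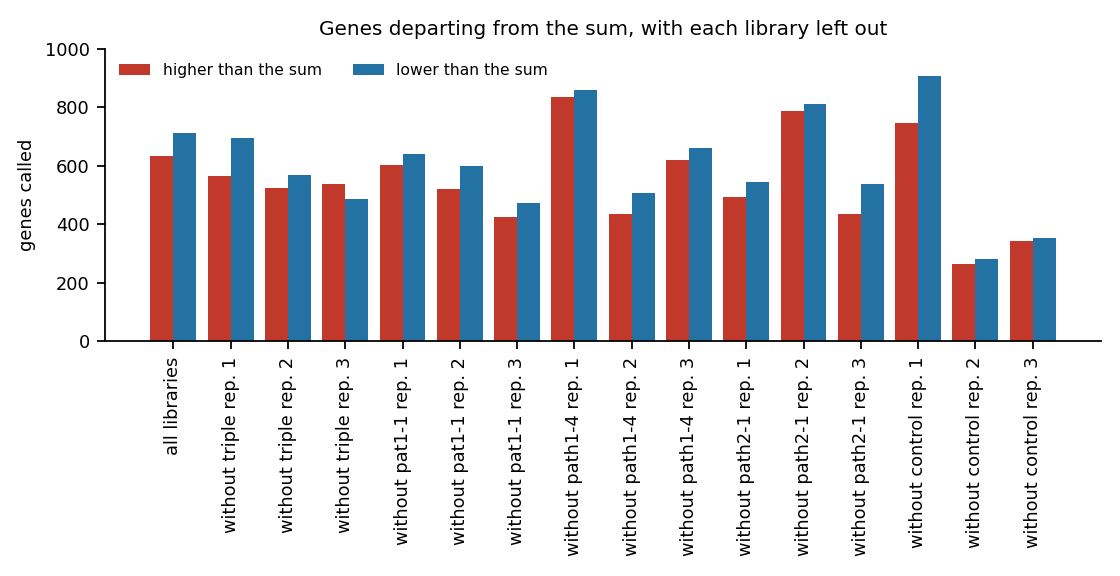
Bars count the genes called higher (left of each pair) and lower (right) than the sum, with all libraries and with each of the 15 libraries of the contrast left out; rep. is the replicate. The counts are lowest without control replicate 2, at 264 higher and 282 lower genes, against 633 and 711 with all libraries.

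Genes that respond to shade had the most downward calls of the 20 gene groups examined. The groups and their members were chosen with earlier results of these data known. The shares called in them, here and below, are therefore a description and not a test. Under canopy shade, phytochrome loses its hold on the phytochrome-interacting factors, which switch on a set of growth and growth-limiting genes. Of 18 measured genes of this group, 7 (38.9%, against 3.49% of all genes tested) were lower than the sum and none was higher, and the median departure was -0.88 against -0.03 over all genes tested. Without summ2-8 replicate 2, 6 of the 7 were still called. The group includes IAA19 and IAA29, which are also counted under auxin.

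HFR1 (AT1G02340, chr1:465616-467880), an atypical basic helix-loop-helix protein that restrains the shade response, was at 14.0, 12.9 and 12.1 CPM in the triple mutant. It was at 40.4, 34.96 and 30.6 CPM in pat1-1summ2-8, 87.5, 106 and 124 CPM in path1-4summ2-8, 93.0, 72.4 and 95.5 CPM in path2-1summ2-8, and 77.2, 56.0 and 68.5 CPM in summ2-8. The triple mutant lay below all other libraries, pat1-1summ2-8 came next and did not overlap with summ2-8, while path1-4summ2-8 lay above summ2-8. The sum of the single effects put HFR1 at 71.9 CPM, and the departure was -2.47 ± 0.28 (SE, edgeR adjusted p = 4.79e-05). The 3 double mutants, which the contrast did not use, were at 42.9 to 119 CPM and did not overlap with the triple mutant.

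HB-2 (AT4G16780), a homeodomain-leucine zipper gene that serves as a marker of shade, was at 38.0, 35.5 and 34.6 CPM in the triple mutant, against 147, 120 and 124 CPM in summ2-8. The single mutants were at 93.3 to 96.5 CPM (pat1-1summ2-8), 149 to 210 CPM (path1-4summ2-8) and 141 to 183 CPM (path2-1summ2-8). As for HFR1, the triple mutant was the lowest genotype and pat1-1summ2-8 was the only single mutant below the range of summ2-8, and the departure was -2.22 ± 0.23 (SE, edgeR adjusted p = 2.91e-05). IAA29, a repressor of auxin-responsive transcription, was at 16.8, 15.2 and 14.7 CPM in the triple mutant, against 73.4, 65.2 and 73.8 CPM in summ2-8, with a departure of -2.42 ± 0.26 (SE, edgeR adjusted p = 2.91e-05). IAA19, another gene of that family, departed by -2.04, the helix-loop-helix gene PIL1 by -1.503 and HAT2, a relative of HB-2, by -1.17. These 6 genes hold without any library, whereas PAR2, at -0.99, was called in only 3 of the 15 fits that left out a library.

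The windows directly upstream of IAA19 and IAA29, which both departed downward, are shown because they differ in the G-box CACGTG, to which phytochrome-interacting factors bind. The window of RVE1, a clock-related gene that departed upward, is shown beside them because it holds the same letters. They are the 250 bases before the annotated gene start in the RefSeq annotation of TAIR10.1, for IAA19 chr3:5263751-5264000 (plus strand), for IAA29 chr4:15583082-15583331 (plus strand) and for RVE1 chr5:5692993-5693242 (minus strand), read 5′ to 3′ along the gene, with CACGTG in capitals:
IAA19: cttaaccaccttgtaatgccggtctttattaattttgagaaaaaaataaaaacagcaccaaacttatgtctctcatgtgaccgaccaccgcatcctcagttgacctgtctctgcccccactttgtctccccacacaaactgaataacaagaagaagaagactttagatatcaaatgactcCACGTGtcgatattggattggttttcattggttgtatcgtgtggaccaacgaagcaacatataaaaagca
IAA29: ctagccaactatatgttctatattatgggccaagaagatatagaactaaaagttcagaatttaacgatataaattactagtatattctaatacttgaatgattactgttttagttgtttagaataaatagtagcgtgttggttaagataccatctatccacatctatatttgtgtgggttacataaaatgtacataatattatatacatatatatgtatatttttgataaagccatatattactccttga
RVE1: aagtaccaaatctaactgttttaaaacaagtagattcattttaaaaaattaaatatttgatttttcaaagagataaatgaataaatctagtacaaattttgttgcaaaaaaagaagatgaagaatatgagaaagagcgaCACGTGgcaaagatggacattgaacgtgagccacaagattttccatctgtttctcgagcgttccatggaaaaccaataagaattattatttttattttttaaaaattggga
The capitals begin 70 bases before the gene start in IAA19 and 111 bases before it in RVE1, and the window of IAA29 holds none. Windows were read for 20204 of the genes tested. On either strand, CACGTG was in 6.11% of those of higher genes and 9.0% of those of lower genes, against 7.3% of all windows. It was in 2 of the 18 windows of the shade group, and in 1 of those of its 7 called genes. In the clock group it was in 9 of 20 windows, and in 2 of those of its 4 called genes.

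**Figure D4:**
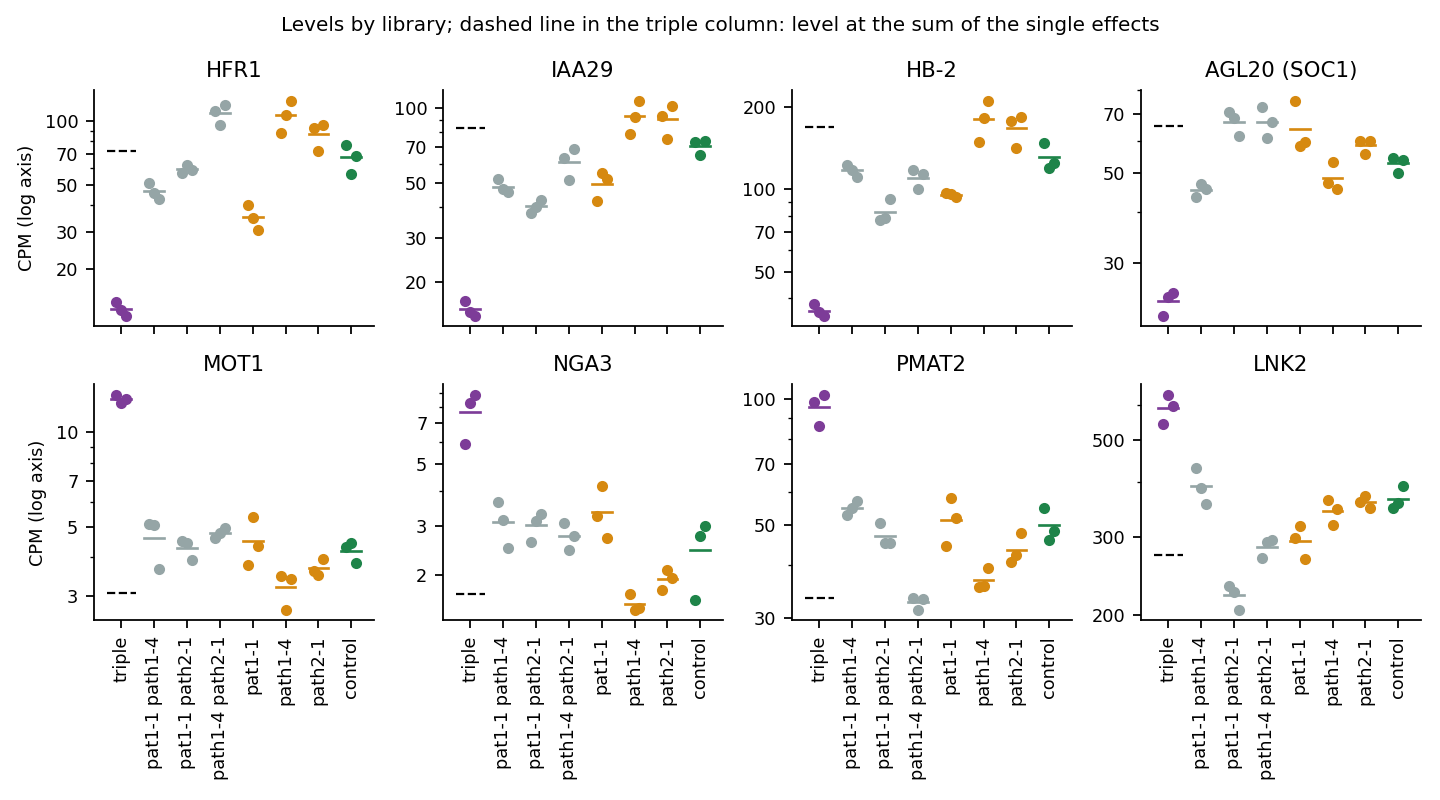
CPM of 8 genes by library on a log axis, with the triple mutant at the left, then the double mutants, the single mutants and the control; short lines are genotype means and the dashed line in the triple column is the level at the sum of the single effects. The triple mutant lies below all 21 other libraries for HFR1, IAA29, HB-2 and AGL20 (SOC1), and above all of them for MOT1, NGA3, PMAT2 and LNK2.

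Calls among auxin, brassinosteroid and gibberellin genes were mostly downward. Of 28 auxin genes, 6 were lower (21.4%, against 3.49% of all genes tested) and 1 was higher than the sum (3.57%, against 3.11%), with a median of -0.43, and 3 of the 6 were still called without summ2-8 replicate 2. GH3.3, which joins auxin to amino acids, was at 4.11, 7.11 and 6.78 CPM in the triple mutant, against 18.8 to 30.7 CPM in the 9 single-mutant libraries and 22.8, 19.8 and 27.1 CPM in summ2-8. It was called in none of the single mutants, fell in the triple mutant and departed by -2.15 ± 0.41 (SE, edgeR adjusted p = 0.00419). Beside IAA19 and IAA29, IAA1 (-0.84), SHY2 (-0.94) and the auxin synthesis gene YUC9 (-1.62) were lower, and DFL1, another conjugating enzyme gene, was higher (0.94). These 4 were called in 11 to 14 of the 15 fits that left out a library.

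Of 20 brassinosteroid and gibberellin genes, 4 (20.0%, against 3.49% of all genes tested) were lower and none higher, with a median of -0.52. BR6OX2, which makes the last step to brassinolide, was at 9.01, 8.22 and 7.51 CPM in the triple mutant, 17.7 to 18.7 CPM in pat1-1summ2-8, 24.9 to 32.1 CPM in the other 2 single mutants, and 25.9, 23.3 and 23.4 CPM in summ2-8. The triple mutant and pat1-1summ2-8 both lay below summ2-8 without overlap, and the departure was -1.64 ± 0.19 (SE, edgeR adjusted p = 5.7e-05). RGL1, a DELLA repressor of gibberellin responses, departed by -1.38 (edgeR adjusted p = 0.0076). GA20OX3, a gibberellin synthesis gene, had 1 count in each triple-mutant library, against 6 to 38 counts in the single-mutant libraries and 16, 23 and 23 counts in summ2-8, too few for a fold change to be read, although its departure was called (edgeR adjusted p = 0.00122). GA2OX8, which inactivates gibberellin, was called in only 4 of the 15 fits that left out a library.

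Among 29 jasmonate genes, 6 (20.7%, against 3.49% of all genes tested) were lower and none higher, and the median departure was -0.88. Only 1 was called without summ2-8 replicate 2, and 2 were called over CPM. That 1 was JAZ6, a repressor of jasmonate signalling, which was at 53.5, 36.1 and 37.3 CPM in the triple mutant, against 81.4 to 118 CPM in the single mutants and 99.7, 86.8 and 107 CPM in summ2-8. Its departure was -1.55 ± 0.27 (SE, edgeR adjusted p = 0.00264). LOX2 and AOS, which carry out early steps of jasmonate synthesis in the plastid, departed by -1.96 and -1.06, with adjusted p-values of 0.017 and 0.0188, and of 0.0756 and 0.0697 without summ2-8 replicate 2. AOC2 (-1.17), OPCL1 (-0.88) and the transcription factor gene ORA59 (-2.65) made up the rest, called in 8 to 11 of the 15 fits that left out a library.

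Downward calls numbered 1 or 2 in each of the cold, rapid stress and touch, abscisic acid and drought, cytokinin and flavonoid groups. Their shares lay between 3.33% of cytokinin and 14.3% of cold genes, against 3.49% of all genes tested. All 14 cold genes had departures below 0, as had 10681 of the 20346 genes tested, and the group median was -0.83. Of the 14, 2 were called. COR15B, a protectant of the plastid membranes, departed by -1.38 and holds without any library. CBF2, a regulator of the cold response, departed by -1.63 and was called in 7 of the 15 fits that left out a library. Of 19 genes of rapid stress and touch responses, ERF2 (-2.41) and ERF5 (-2.07), a pair of ethylene response factor genes, were lower and hold without any library. ERF2 was at 5.87, 7.82 and 7.55 CPM in the triple mutant, against 17.2 to 36.0 CPM in the single mutants and 28.3, 15.4 and 20.3 CPM in summ2-8. Of 22 abscisic acid and drought genes, RD22 (-1.35), a dehydration-responsive gene, and AFP3 (-1.28) were lower, and AFP3 had an adjusted p of 0.0647 without summ2-8 replicate 2. Of 30 cytokinin genes, CKX5 (-1.75), a cytokinin oxidase gene, was the only one called. The group median was 0.14, with 18 departures above 0, against 9665 of the 20346 genes tested. Of 16 flavonoid genes, chalcone synthase TT4 (-1.74, adjusted p of 0.0756 without summ2-8 replicate 3) and the anthocyanin regulator PAP1 (-3.18, called in 5 of the 15 fits that left out a library) were lower. Over CPM, none of the cold and flavonoid genes was called.

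**Figure D5:**
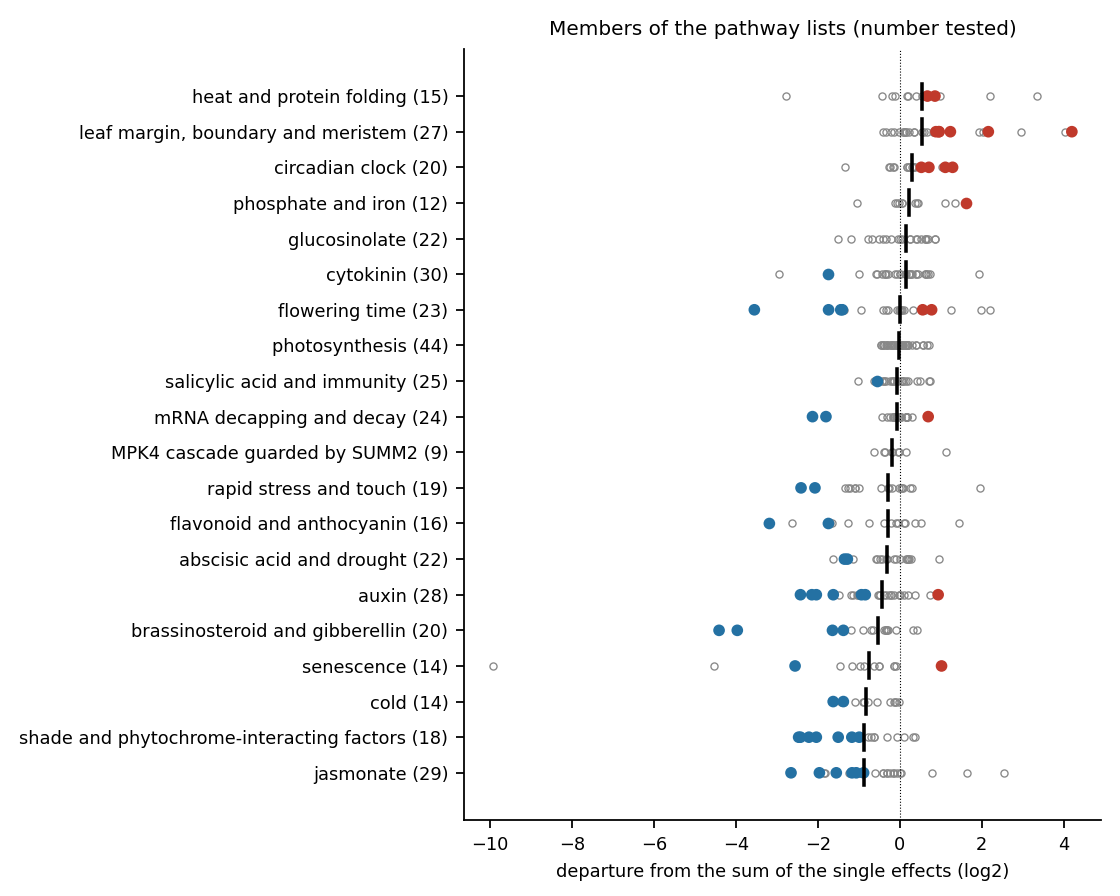
Each circle is a measured member of a gene group, placed by its departure from the sum in log2 units; filled circles were called (red higher, blue lower), black bars are medians and the number tested follows each name. The medians of the shade, jasmonate and cold groups lie below -0.8, and those of the leaf margin and heat groups above 0.5.

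All calls among leaf margin, boundary and meristem genes were upward. Of 27 measured, 6 (22.2%, against 3.11% of all genes tested) were higher and none was lower, with a median of 0.53 and 5 departures below 0, and 4 of the 6 were called without summ2-8 replicate 2. NGA3 (AT1G01030, chr1:11649-13714), a NGATHA transcription factor that limits growth at the leaf margin, was at 5.91, 8.26 and 8.85 CPM in the triple mutant. It was at 2.71 to 4.16 CPM in pat1-1summ2-8, 1.522, 1.706 and 1.5 CPM in path1-4summ2-8, 1.76 to 2.08 CPM in path2-1summ2-8, and 1.63, 2.76 and 3.00 CPM in summ2-8. The triple mutant lay above these 12 libraries while the single mutants overlapped with summ2-8, and the departure was 2.16 ± 0.43 (SE, edgeR adjusted p = 0.00602). AFO, also known as FIL or YAB1, which marks the lower side of the leaf, was at 139, 141 and 164 CPM in the triple mutant, against 59.2 to 102 CPM in the single mutants and 88.2, 99.3 and 91.2 CPM in summ2-8, a departure of 1.23 ± 0.19 (SE, edgeR adjusted p = 0.00106). AS1 (0.95), a MYB gene that keeps meristem genes off in leaves, and TCP5 (0.88) also hold without any library, and the meristem gene KNAT1 (4.198) and BOP2 (0.96) did not. The 10 leaf marker genes had no call, against 6.61% of all genes tested. Their summed level was 68600 to 75490 CPM in the triple mutant, 61350 to 86980 CPM in the single mutants and 70160 to 86570 CPM in summ2-8.

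Calls among flowering genes went both ways, while those among clock genes were all upward. Of 23 flowering genes, 4 were lower and 2 higher than the sum, where 3.49% of all genes tested were lower and 3.11% higher, and 2 lower genes were called without summ2-8 replicate 2. SOC1, listed as AGL20, which promotes flowering, was at 22.2, 24.7 and 25.3 CPM in the triple mutant, 58.2 to 75.3 CPM in pat1-1summ2-8, 45.5 to 53.1 CPM in path1-4summ2-8, 55.8 to 60.0 CPM in path2-1summ2-8, and 54.5, 50.1 and 53.9 CPM in summ2-8. Pat1-1summ2-8 and path2-1summ2-8 lay above summ2-8 and the triple mutant below it, and the departure was -1.44 ± 0.18 (SE, edgeR adjusted p = 0.00019). Against summ2-8, pat1-1summ2-8 was called for SOC1 (edgeR adjusted p = 0.0283) and path2-1summ2-8 was not (edgeR adjusted p = 0.474). AGL42, a related MADS-box gene, was at 0.37, 0.54 and 0.70 CPM in the triple mutant, against 3.18 to 6.46 CPM in the single mutants and 4.93, 2.52 and 3.04 CPM in summ2-8, a departure of -3.55 ± 0.55 (SE, edgeR adjusted p = 0.00106). The flowering repressor TEM1 (-1.40, adjusted p of 0.0894 without summ2-8 replicate 2) and SPL5 (-1.74) were the other lower genes. The mean of TEM1 was 35.7 CPM in the triple mutant and 54.0 CPM in summ2-8. It was as low in pat1-1path2-1summ2-8 (37.8 CPM) and path1-4path2-1summ2-8 (34.4 CPM), and 50.5 CPM in pat1-1path1-4summ2-8. AGL24 (0.56) and TOE2 (0.78) were the higher genes, neither called without summ2-8 replicate 2.

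Of 20 measured clock genes, 4 (20.0%, against 3.11% of all genes tested) were higher and none lower, with a median of 0.31, and 1 was called without summ2-8 replicate 3. That gene was LNK2, a coactivator of the morning-phased REVEILLE proteins, at 542, 631 and 597 CPM in the triple mutant, 268 to 318 CPM in pat1-1summ2-8, 321 to 373 CPM in the other single mutants, and 350, 359 and 391.6 CPM in summ2-8. The triple mutant was above summ2-8 and pat1-1summ2-8 below it, and the departure was 1.11 ± 0.16 (SE, edgeR adjusted p = 0.000708). RVE1, a REVEILLE gene, was at 50.8, 54.8 and 55.7 CPM in the triple mutant, against 9.18 to 21.4 CPM in the single mutants and 11.5, 12.7 and 13.5 CPM in summ2-8, and departed by 1.29 (edgeR adjusted p = 0.0128, and 0.0562 without summ2-8 replicate 3). RVE8, another one, departed by 0.71 (edgeR adjusted p = 0.0213, and 0.0831 without summ2-8 replicate 3), and CCA1, a core morning clock gene, by 0.53, called in 7 of the 15 fits that left out a library. The hour of collection is not in the labels, and these genes vary through the day.

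Among the 10 largest upward departures by the naming rule were MOT1, AMT1;2 and NAS4. MOT1, a molybdate transporter gene, was at 13.2, 12.4 and 12.8 CPM in the triple mutant, against 2.71 to 5.36 CPM in the single mutants and 4.30, 4.43 and 3.82 CPM in summ2-8. The sum put it at 3.08 CPM, and the departure was 2.05 ± 0.27 (SE, edgeR adjusted p = 0.000238). The ammonium transporter gene AMT1;2 departed by 1.84 and NAS4, a nicotianamine synthase gene of metal transport, by 2.08. NAS4 was at 10.2 to 19.5 CPM in the triple mutant, against 3.83 to 7.70 CPM in the single mutants and 6.59 to 9.40 CPM in summ2-8, with the triple mutant above all 12 other libraries. The phosphate exporter gene PHO1, the only one called of 12 phosphate and iron genes (8.33%, against 3.11% of all genes tested called higher), departed by 1.63 without a called change in the triple mutant. It was at 22.7 to 25.7 CPM in the triple mutant, 14.3 to 23.2 CPM in the single mutants, and 21.3, 36.8 and 22.0 CPM in summ2-8, and its adjusted p was 0.0848 without summ2-8 replicate 2.

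Markers of root were examined because the tissue was labelled as above ground. The summed level of 15 root markers was 176 to 212 CPM in the triple mutant, 79.1 to 151 CPM in the single mutants and 87.4 to 127 CPM in summ2-8. None of the 10 markers measured was called, against 6.61% of all genes tested, and their median departure was 1.22. All 10 had departures above 0, as had 9665 of the 20346 genes tested. In the triple mutant the marker with the highest mean was PYK10, a beta-glucosidase gene, at 90.6 CPM, against 26.7 CPM in summ2-8. No other marker rose by as many CPM. In summ2-8 the highest was SCR, at 41.1 CPM, against 51.7 CPM in the triple mutant. FRO2, at 3.66 CPM in the triple mutant and 4.21 CPM in summ2-8, and SHR, at 12.1 CPM in the triple mutant and 13.7 CPM in summ2-8, were not higher than in the control. The 5 markers that were not tested, RHD6, MYB36, IRT1, WER and TIP2;3, had at most 8 counts in any of the 24 libraries, with RHD6 at 0 in all, and CASP1, CASP2 and NRT2.1 had at most 25. In bulk tissue, a change in the share of cells of a type and a change in RNA per cell cannot be told apart. The part of these markers in the upward departures was not tested.

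Other genes among these 10 encode enzymes of the cell wall, a kinase and regulators of transcription. PME5, a pectin methylesterase gene, was at 15.8, 14.7 and 10.9 CPM in the triple mutant, against 4.32 to 8.69 CPM in the single mutants and 8.44, 13.1 and 11.2 CPM in summ2-8. The triple mutant overlapped with summ2-8 and the single mutants lay below it in all but 1 library, so that the departure of 2.58 ± 0.44 (SE, edgeR adjusted p = 0.00217) came with a triple fold change of only 0.33. Of the single mutants, only pat1-1summ2-8 was called against summ2-8 for PME5 (edgeR adjusted p = 0.0336). RXF12, a xylanase family gene, departed by 2.32, the MYB-like gene RL5 by 2.18, the receptor kinase gene IMK2 by 1.82 and scpl31, a serine carboxypeptidase-like gene, by 3.81. RL5 was at 10.8, 9.58 and 10.8 CPM in the triple mutant, against 1.72 to 5.05 CPM in the single mutants and 4.01, 2.99 and 2.89 CPM in summ2-8. Scpl31 was at 1.08 to 1.63 CPM in path1-4summ2-8 and at 8.25 to 12.1 CPM in pat1-1summ2-8, so its sum of -2.34 combined fitted effects of opposite sign.

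QQS, a gene found only in A. thaliana that affects the split of carbon between starch and protein, had the largest upward departure among the genes named by that rule, 4.33 ± 0.73 (SE, edgeR adjusted p = 0.002). It was at 2.21, 7.82 and 7.62 CPM in the triple mutant, 0.98, 2.96 and 2.86 CPM in pat1-1summ2-8, 3.65, 5.00 and 5.40 CPM in path1-4summ2-8, 3.14, 2.92 and 4.59 CPM in path2-1summ2-8, and 12.8, 8.31 and 13.0 CPM in summ2-8. Every mutant library lay below every summ2-8 library, so its triple fold change of -0.94 fell short of a sum of -5.28. Path1-4summ2-8 and path2-1summ2-8 were not called against summ2-8 for QQS (edgeR adjusted p = 0.213 and 0.113).

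The smallest p-values among higher genes belonged to AT2G35170, PMAT2 and AT4G39780, in each of which the triple mutant lay above all 12 other libraries. AT2G35170 was at 31.3, 32.5 and 36.7 CPM in the triple mutant, against 10.0 to 16.0 CPM in the single mutants and 11.1 to 11.6 CPM in summ2-8, a departure of 1.37 ± 0.15 (SE, edgeR adjusted p = 4.46e-05). PMAT2, a malonyltransferase gene for phenolic glucosides, was at 98.2, 85.9 and 102 CPM in the triple mutant, against 35.6 to 57.8 CPM in the single mutants and 54.9, 46.1 and 48.4 CPM in summ2-8. The path1-4summ2-8 libraries of PMAT2 were below all of summ2-8, without a call against it (edgeR adjusted p = 0.0569). Its departure was 1.52 ± 0.18 (SE, edgeR adjusted p = 7.59e-05). AT4G39780, annotated as an integrase-type DNA-binding protein, departed by 1.71.

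Among lower genes the smallest p-values were those of BBX29 and AT3G56060. BBX29, a B-box zinc finger gene, was at 5.64, 4.47 and 4.70 CPM in the triple mutant, 10.7, 11.0 and 11.8 CPM in pat1-1summ2-8, 17.5, 18.4 and 19.0 CPM in path1-4summ2-8, 17.0, 16.0 and 16.8 CPM in path2-1summ2-8, and 14.9, 14.3 and 12.6 CPM in summ2-8. Path1-4summ2-8 and path2-1summ2-8 lay above summ2-8 and the other 2 genotypes below it, with no overlap, and the departure was -1.81 ± 0.17 (SE, edgeR adjusted p = 4.39e-06). Neither path1-4summ2-8 nor path2-1summ2-8 was called against summ2-8 for BBX29 (edgeR adjusted p = 0.0507 and 0.208). AT3G56060, annotated as a GMC oxidoreductase, was at 17.9 to 18.7 CPM in the triple mutant, 45.7 to 55.3 CPM in pat1-1summ2-8 and 69.5 to 74.6 CPM in summ2-8, a departure of -1.40 ± 0.13 (SE, edgeR adjusted p = 4.39e-06). It was among the genes in which the triple mutant went beyond a decrease already present in pat1-1summ2-8.

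Beside HFR1 and IAA29, given above, the largest downward departures by the naming rule were of 2 kinds. In CIPK25, WAG2, HIS1-3 and LAC2 the triple mutant went beyond a decrease in pat1-1summ2-8. HIS1-3, a drought-inducible linker histone gene, was at 5.42, 2.94 and 2.14 CPM in the triple mutant, 15.7, 16.8 and 23.4 CPM in pat1-1summ2-8, 41.8 to 111 CPM in the other single mutants, and 67.5, 58.4 and 56.0 CPM in summ2-8, and departed by -2.97 ± 0.52 (SE, edgeR adjusted p = 0.00264). CIPK25, a calcium sensor-interacting kinase gene, departed by -3.78, WAG2, a kinase gene that acts on auxin carriers, by -3.03, and LAC2 by -2.89. Over CPM, the departure of HIS1-3, CIPK25 and WAG2 kept its sign at adjusted p-values of 0.198, 0.32 and 0.152, and that of LAC2 was 0.452 CPM.

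In NATA1, CSLG2, TPS04 and AGL42 the fitted sum was above the control and the fitted triple fold change below it. No single mutant was called against summ2-8 for any of these genes. For NATA1 and CSLG2 the triple mutant was not called against summ2-8 either (edgeR adjusted p = 0.0558 and 0.123). NATA1, an acetyltransferase gene of jasmonate-induced defence, was at 8.86, 23.9 and 27.2 CPM in the triple mutant, 33.5 to 63.5 CPM in pat1-1summ2-8, 88.4 to 137 CPM in path1-4summ2-8, 54.7 to 97.6 CPM in path2-1summ2-8, and 34.5, 40.7 and 44.2 CPM in summ2-8. The path1-4summ2-8 and path2-1summ2-8 libraries all lay above summ2-8, the triple mutant lay below it, and the departure was -3.94 ± 0.84 (SE, edgeR adjusted p = 0.00845). A low level of NATA1 was not particular to the triple mutant, whose mean was 20.0 CPM. Among the double mutants the mean was 26.1 CPM in pat1-1path2-1summ2-8, 71.2 CPM in pat1-1path1-4summ2-8 and 61.2 CPM in path1-4path2-1summ2-8. CSLG2, a cellulose synthase-like gene, departed by -5.90 ± 1.25 (SE, edgeR adjusted p = 0.00784) and had uneven libraries, with path1-4summ2-8 at 1.75, 5.43 and 17.9 CPM. TPS04, which makes a precursor of a volatile homoterpene, was at 0.97, 0.51 and 0.56 CPM in the triple mutant, against 3.29 to 5.81 CPM in the single mutants and 4.22, 2.25 and 2.81 CPM in summ2-8, a departure of -3.84.

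The machinery in which PAT1 proteins act held 3 calls. Of 24 decapping and decay genes, 2 were lower (8.33%, against 3.49% of all genes tested) and 1 was higher (4.17%, against 3.11%), and the median departure was -0.08. CAF1a, a deadenylase gene that also responds rapidly to stress, was at 11.0, 9.54 and 9.13 CPM in the triple mutant, against 18.6 to 42.5 CPM in the single mutants and 23.7, 15.4 and 27.3 CPM in summ2-8, a departure of -2.13 ± 0.37 (SE, edgeR adjusted p = 0.00237). Its paralogue CAF1b departed by -1.80 and SOV, an exonuclease gene, by 0.69, and both lost the call without summ2-8 replicate 2, with adjusted p-values of 0.0881 and 0.103. None of the 9 genes of the MPK4 cascade guarded by SUMM2 was called, against 6.61% of all genes tested. Of 25 genes of salicylic acid and immunity, the receptor gene RPS4 (-0.55, called in 6 of the 15 fits that left out a library) was the only one (4.0%, against 3.49% of all genes tested called lower), and the group median was -0.07.

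No photosynthesis gene was called among 44, against 6.61% of all genes tested called in either direction. Their median departure was -0.01, although their median fold change in the triple mutant was -0.23. None of 22 glucosinolate genes was called either, against the same 6.61%, with medians of 0.15 for the departure and -0.43 for the triple fold change. Of 15 heat and protein folding genes, HSP101 (0.86), a disaggregating chaperone, and HSFB2B (0.67) were higher (13.3%, against 3.11% of all genes tested), but neither was called without summ2-8 replicate 2 or without summ2-8 replicate 3. Of 14 senescence genes, SEN1 was higher (1.02, adjusted p of 0.0934 without summ2-8 replicate 3) and SAG13 lower (-2.56), each 7.14% of the group, against 3.11% and 3.49% of all genes tested. The group median was -0.74, and 13 of the 14 departures were below 0, against 10681 of the 20346 genes tested. SAG13 was at 28.4 to 34.4 CPM in the triple mutant, 43.6 to 71.8 CPM in pat1-1summ2-8 and 26.6, 5.63 and 9.33 CPM in summ2-8, so a triple fold change of 1.15 fell short of a sum of 3.71, and it was called in 5 of the 15 fits that left out a library.

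Of the called genes, 26.9% lay on chromosome 1, against 26.2% of all genes tested. Genes higher than the sum had longer exon sequence, with a median of 1988 bases, than genes lower than it, at 1670 bases, against 1771 bases over the 20205 tested genes with an annotated length. Across these genes the departure rose weakly with length (Spearman rho = 0.112), which describes genes and not replicates. Of other promoter motifs, the evening element AAAATATCT was in 1.77% of the windows of higher genes and 3.52% of those of lower genes, against 2.48% of all, and TTGACC or TTGACT, the W-box of WRKY factors, was in 24.6% and 28.3%, against 28.2% of all. The heat shock element was in 0.322% and 0.563%, against 0.411% of all.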

How the data were processed

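RNA from above-ground tissue of 8 genotypes, with 3 libraries each, was sequenced on a BGISEQ-500 instrument from 1 µg of RNA, per the labels' protocols. STAR 2.5.1b and the TAIR10 build are named in the submitters' processing notes, and how reads were counted, on which annotation and whether by strand, is not given in the sources used here, so reads of overlapping or antisense genes and near-identical copies may be shared. The authors deposited whole-number counts per gene and a TPM table. For each of the 28486 genes with a count, the deposited TPM kept a constant ratio to the count within 0.1% after library scaling, and only the counts were tested. Columns were assigned by the library numbers in the labels.

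Genes were filtered with filterByExpr and scaled with TMM in edgeR 4.0.16 (R 4.3.3), which left 20346 genes, and CPM are counts over TMM-scaled library sizes. The 24 libraries entered 1 quasi-likelihood fit with a coefficient for each genotype, in which contrasts were tested two-sided with Benjamini-Hochberg adjustment over all genes tested. Each SE was calculated back from the test, as the size of the log2 value divided by the square root of its quasi-likelihood F statistic. The biological coefficient of variation was 10.9%. Alternatives were other size factors, no filter, only the 15 libraries of the contrast, no organelle genes, a length trend, sums over CPM (limma 3.58.1), DESeq2 1.42.0 and each library left out. Length and GC trends together, and counts per gene group, were added after seeing the data. The scripts were tested on simulated data in which only the triple mutant differed from the control, so single effects were not simulated. Genes were named by rule: the 10 largest called departures upward and downward, with a symbol, a mean log2 CPM (prior count 2) of at least 1, at least 10 counts per genotype and a call that holds without any library; the 3 smallest p-values in each direction; up to 3 called members per gene group; and the mutated genes. Other called group members are named with their departure alone, and were chosen after their values were seen. The gene groups and members were chosen with earlier results of these data known. Symbols and promoter windows come from RefSeq (TAIR10.1), matched by locus, and 6374 of the 20204 windows overlap another gene. The labels call the libraries biological triplicates but do not say how plants were pooled.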

Additional observations from a re-analysis of the deposited data

How the results depend on the processing

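The count of departing genes stayed within 1.5 times of 1344 with the RLE size factors of edgeR (1341), DESeq2 (1639), no filter (1157), no organelle genes (1342), a length trend removed (1391), sums over CPM (1305) and length and GC trends removed together (1404, chosen after seeing the data). A fit of only the 15 libraries of the contrast called 668 genes (306 higher, 362 lower). Leaving out 1 library gave 546 to 1691 genes (264 to 833 higher, 282 to 907 lower). Counts against summ2-8 ranged, with 1 library left out, from 2700 to 4454 for pat1-1summ2-8, 16 to 113 for path1-4summ2-8 and 2 to 42 for path2-1summ2-8. DESeq2 called 101 genes for path1-4summ2-8 and 125 for path2-1summ2-8, and the 15-library fit called 19 and 2. The cause was not tested. Of 63 named genes, LAC2 reversed over CPM (0.452 CPM, adjusted p = 0.85) and no other did under any alternative. Calls were lost for 13 genes over CPM, 8 in the 15-library fit, 3 with length and GC trends removed, 2 without the filter, 1 with DESeq2, 1 with the length trend removed, and 1 to 13 without a single library, the most without summ2-8 replicate 2. PATH2 gained a call without path1-4summ2-8 replicate 3. No paired analysis was possible because the labels give no replicate number that genotypes share. With 3 libraries a genotype, departures near the median SE of 0.25 are not detectable.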

Other observations

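In 2 called loci, chosen after their values were seen, the same switch was present in more than 1 single mutant, so that the sum counted it more than once. AT3G54823, annotated as a pseudogene, had 1467, 1498 and 1333 counts in the triple mutant, 907 to 1154 counts in pat1-1summ2-8, 625 to 1277 counts in path1-4summ2-8, at most 4 counts in path2-1summ2-8, and 2, 3 and 7 counts in summ2-8. AT1G64795, a protein-coding locus, had 1219, 1255 and 1157 counts in the triple mutant, 703 to 987 counts in pat1-1summ2-8, 369 to 871 counts in path1-4summ2-8, at most 1 count in path2-1summ2-8, and 3, 3 and 4 counts in summ2-8. Both were high in the triple mutant and in those 2 single mutants, and near 0 in path2-1summ2-8 and summ2-8. Their departures, -6.82 and -5.43 (edgeR adjusted p = 0.00829 and 0.0391), rest on these near-0 counts and on the prior count.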
